A study of Mus musculus with 6 samples.

Results

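The pentose phosphate pathway and the other cytosolic enzymes that make NADPH were described in 661W cells by the transcript levels of 9 genes, chosen by symbol from a table of 24879 genes. G6pdx, Pgls and Pgd encode the oxidative branch, Rpia, Rpe, Tkt and Taldo1 the non-oxidative branch, and Me1 and Idh1 encode cytosolic enzymes that make NADPH outside the pathway. 661W is an immortalised mouse line, which the labels describe as photosensitive cells. The 3 Light libraries came from 661W cells kept for 24 h in cold white light of 2000 ± 100 lux from a fluorescent lamp, and the 3 Dark libraries from 661W cells kept for the same 24 h without light. No genetic change or drug separated the groups. Nothing in the labels says that the libraries of a group were separate cultures, so p-values measure the spread between these libraries, which may be technical.

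Glucose that enters the oxidative branch as glucose 6-phosphate is oxidised and loses a carbon, and each pass yields NADPH and a pentose phosphate. The non-oxidative branch rearranges pentose phosphates reversibly into glycolytic sugars, or runs backwards to supply ribose for nucleotides. NADPH returns oxidised glutathione and thioredoxin to their reduced forms and drives lipid synthesis, and photoreceptors, which bear a heavy oxidative load and renew their membranes throughout life, use it further to reduce retinal made by bleached pigment. In mouse and human cells the transcription factor NRF2 is known to raise several genes of both branches and Me1.

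All 9 genes had a mean of at least 1 FPKM, the floor for testing. FPKM scale fragments to both the length of a transcript and the size of a library, so levels can be compared between genes. Of the 9 genes 6 were higher in Light, 1 was lower and 2 did not pass (limma, Benjamini-Hochberg adjusted p under 0.05 over all 11068 genes tested). Over all genes tested 35.6% were called, 19.2% higher and 16.4% lower. The median change of the 9 genes was 0.47 on the log2(FPKM + 1) scale, against -0.01 over all genes tested. The 3 Light values lay above all 3 Dark values for 6 of the 9, where 28.2% of all genes did so, and below them for 1, where 24.4% did so. Since the 9 genes were chosen with earlier results of these data known, these counts are a description. Leaving out Dark 3 or Light 3 lowered the number called from 7 to 4. Over all genes tested, the number called went from 3938 of 11068 to 1262 of 11053 without Dark 3 and to 1228 of 11099 without Light 3.

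The libraries were not alike in all other respects. FPKM totals ran from 411186 to 434372 in Dark and from 459198 to 471471 in Light, and read depth is not given in the sources used here. Once FPKM totals were made equal, the median change of all genes moved to -0.14, and the split of called genes went from 2128 higher and 1810 lower to 1212 higher and 2910 lower. In that setting 4 of the 9 were higher and 1 was lower. Light minus Dark also followed GC content: the tenth of genes with the lowest GC had a median change of -0.45 and the tenth with the highest one of 0.17. The same trend stood between libraries of 1 group, with medians of 0.69 and -0.23 in those gene groups for Dark 1 minus Dark 2, and of 0.39 and -0.13 for Light 1 minus Light 2. None of 13 cone photoreceptor markers reached a mean of 1 FPKM, and Opn1mw, Arr3, Cngb3 and Pde6c were listed at 0 in all libraries. The summed level of 8 fibroblast markers was 756 to 874 FPKM in Dark and 368 to 399 in Light, that of 7 macrophage markers 3.95 to 5.17 and 8.33 to 10.1, that of 6 endothelial markers 6.51 to 7.65 and 4.23 to 4.75, that of 6 Müller glia markers 913 to 1077 and 1090 to 1108, and that of 8 rod markers 0.176 to 0.257 and 0.203 to 0.295. Cd68 made up most of the macrophage sum (means of 3.49 FPKM in Dark and 8.12 in Light). Flt1 did so for the endothelial sum (6.69 and 4.08), Vim for the Müller glia sum (924 and 1061) and Col1a1 for the fibroblast sum (661 and 331). Tested genes stood higher in Light for 1 macrophage marker, and lower for 5 fibroblast, 2 Müller glia (Glul and Slc1a3) and 1 endothelial marker. The remaining Müller glia marker tested, Vim, did not pass. The sums do not show numbers of cells of a kind. The part of these shifts in the results below was not tested. In bulk RNA, fewer cells of a kind and less RNA per cell cannot be told apart.

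**Figure D1:**
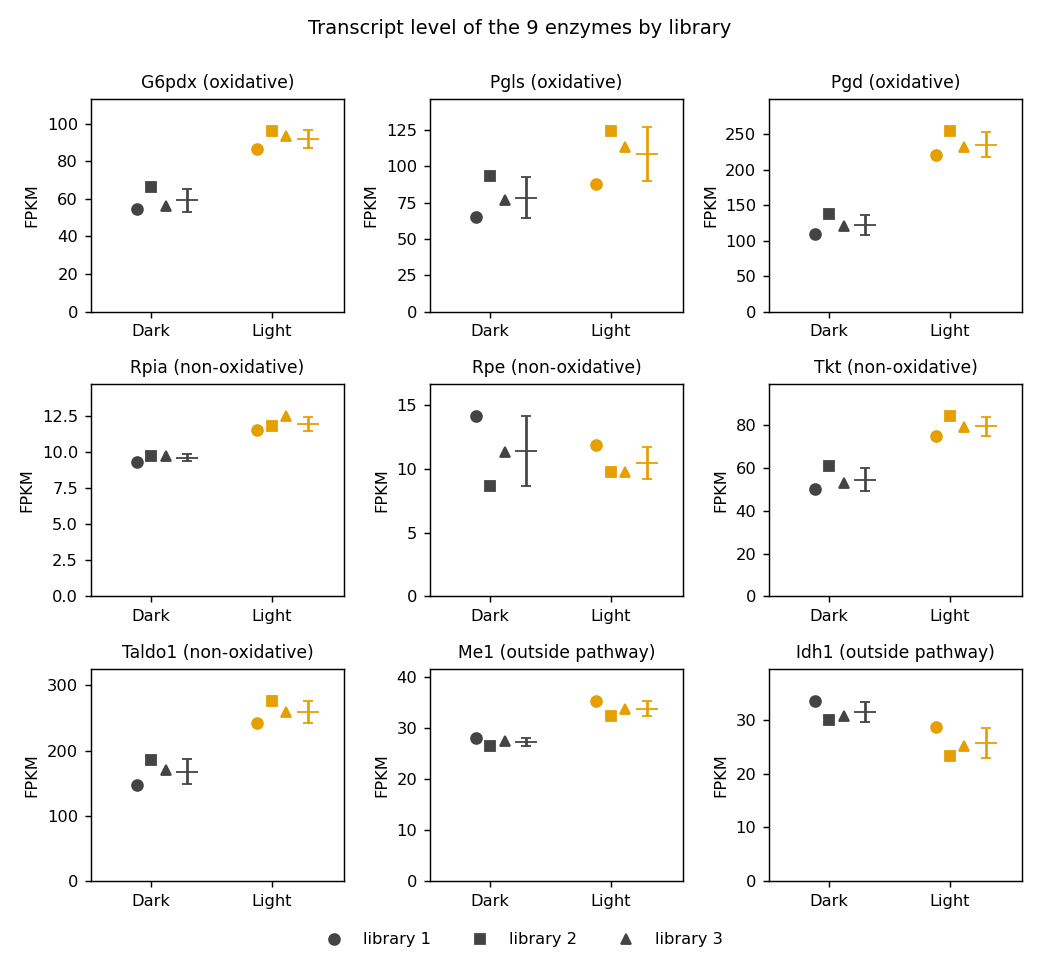
Transcript level (FPKM, vertical axes from 0) of each of the 9 genes in the 3 Dark and 3 Light libraries; the symbol shape gives the library number, and the bar with whiskers gives the mean and SD of 3 libraries. The groups do not overlap for G6pdx, Pgd, Rpia, Tkt, Taldo1, Me1 and Idh1, and they overlap for Pgls and Rpe.

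In the oxidative branch, the genes of both NADPH-making dehydrogenases rose and that of the lactonase between them did not pass the test. G6pdx encodes glucose-6-phosphate dehydrogenase, which commits glucose 6-phosphate to the pathway and makes the first NADPH. It measured 54.9, 66.4 and 56.4 FPKM in Dark 1 to 3 and 86.5, 96.0 and 93.5 FPKM in Light 1 to 3. Every Light library stood above every Dark library, with a gap wider than the range of either group. The means were 59.2 ± 6.23 and 92.0 ± 4.89 FPKM (SD, n = 3), a ratio of 1.55, and the log2 change was 0.63 ± 0.09 (SE; adjusted p = 0.00351). G6pdx kept its call in all 15 alternative settings, with a change of 0.49 to 0.71.

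G6pdx (ENSMUSG00000031400) lies on the minus strand of the X chromosome from 74409483 to 74429194 in mm10, where Ikbkg, the gene of an NF-kB pathway regulator, covers it on the opposite strand. The genes share 418 of 3080 exonic bases of G6pdx, and whether counting used strand is not given in the sources used here. Ikbkg was also higher in Light, at 12.7 to 13.9 FPKM in Dark and 20.2 to 22.2 in Light, and its level was below that of G6pdx in every library. G6pd2, an intronless relative that aligned to G6pdx at 93.2% identity over 2332 bases, was listed at 0 in every library.

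The 250 bases before the RefSeq start of G6pdx are shown because they hold the core of the antioxidant response element, the site that NRF2 binds with small MAF proteins. The core searched was TGACNNNGC on either strand, in windows of 250 bases before and 50 after each start (RefSeq, GRCm38.p6, the same assembly as mm10). It can overlap an AP-1 site. All 9 genes matched, with 12 windows. A core was found in 3 of the 9 genes, G6pdx, Pgd and Me1, against 14.0% of 27025 genes, and in 3 of 12 windows against 12.4% of 32851. That of Pgd was not upstream: it lay at a second start inside the gene, from base 4 after that start. The sequence is chrX:74428881-74429130, minus strand, with the core in capitals; it reads on the strand opposite to the gene, as TGACTGAGC, and its first base in the direction of the gene stands at -57 from the start.
G6pdx: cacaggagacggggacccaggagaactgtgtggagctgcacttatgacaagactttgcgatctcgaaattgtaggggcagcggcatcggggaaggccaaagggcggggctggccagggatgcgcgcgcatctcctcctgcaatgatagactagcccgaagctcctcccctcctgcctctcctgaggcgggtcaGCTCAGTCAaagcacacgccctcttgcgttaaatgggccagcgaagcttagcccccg
A match of letters is not a bound site, and binding was not measured.

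Pgls encodes the lactonase that opens the ring product of glucose-6-phosphate dehydrogenase. Its levels were 64.8, 93.1 and 77.1 FPKM in Dark 1 to 3 and 87.9, 124 and 113 FPKM in Light 1 to 3. The groups overlap, because Dark 2 stood above Light 1. The means were 78.3 ± 14.2 and 108 ± 18.6 FPKM, and the log2 change of 0.47 ± 0.17 did not pass (adjusted p = 0.0626; 95% interval 0.08 to 0.85). Library 1 was the lowest of its group and library 2 the highest in both groups, by 0.52 on the log2 scale in Dark and 0.49 in Light, wider than the spread of any other member in Light. The Pgls transcript has a GC content of 65.9%, above that of 99.7% of tested genes. After removal of the trend with length and GC in each library, Pgls stood higher in Light by 0.21 (adjusted p = 0.0354). It was also called without Dark 2 (0.60, adjusted p = 0.0194) and without Light 1 (0.61, adjusted p = 0.0317). Pgls (ENSMUSG00000031807) spans chromosome 8 from 71592176 to 71601092 on the plus strand and shares 776 exonic bases with Fam129c on the same strand, which stood at 1.51 to 2.04 FPKM over the 6 libraries.

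Pgd had the largest change of the 9 genes. It encodes 6-phosphogluconate dehydrogenase, which makes the second NADPH of the branch and releases the pentose ribulose 5-phosphate. Its levels were 110, 138 and 120 FPKM in Dark 1 to 3 and 220, 254 and 232 FPKM in Light 1 to 3. The lowest Light library was well above the highest Dark library. The means were 122 ± 14.1 and 235 ± 17.1 FPKM, a ratio of 1.92, and the log2 change was 0.94 ± 0.10 (adjusted p = 0.00115). Among all genes tested, 99.0% had a change as low or lower. Pgd kept its call in all 15 alternative settings, with a change of 0.76 to 1.03.

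Within a library, Pgd stood at 1.997, 2.07 and 2.13 times the FPKM of G6pdx in Dark 1 to 3 and at 2.54, 2.64 and 2.48 times in Light 1 to 3. The ratio was higher in all 3 Light libraries, with an exact permutation p of 0.1 (2-sided), the smallest that 3 against 3 allow.

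Pgd (ENSMUSG00000028961) spans chromosome 4 from 149149991 to 149166771 on the minus strand. The 250 bases before the first RefSeq start of Pgd are given for comparison with G6pdx, since the gene that rose furthest has no core in this window (chr4:149166706-149166955, minus strand).
Pgd: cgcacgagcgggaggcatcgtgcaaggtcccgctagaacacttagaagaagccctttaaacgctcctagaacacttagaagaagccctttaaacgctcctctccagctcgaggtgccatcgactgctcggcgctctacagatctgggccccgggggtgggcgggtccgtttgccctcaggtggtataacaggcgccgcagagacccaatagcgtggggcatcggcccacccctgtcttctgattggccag
The window of a second RefSeq start of Pgd, farther into the gene, holds 1 core, which begins at base 4 after that start (chr4:149166063-149166087, minus strand; core in capitals).
Pgd, second start: ttcagagcTGACATTGCactgatcg

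In the non-oxidative branch, the genes of transketolase and transaldolase rose by about as much as G6pdx, the isomerase gene Rpia by less, and the epimerase gene Rpe did not pass. Rpia encodes ribose-5-phosphate isomerase, which turns ribulose 5-phosphate into ribose 5-phosphate. It measured 9.34, 9.74 and 9.78 FPKM in Dark 1 to 3 and 11.5, 11.9 and 12.5 FPKM in Light 1 to 3. The groups did not overlap and both were narrow. The means of 9.62 ± 0.244 and 11.97 ± 0.499 FPKM give a ratio of 1.24, and the log2 change was 0.29 ± 0.07 (adjusted p = 0.0196). The call was lost without Dark 1 (adjusted p = 0.0524), Dark 3 (0.0699), Light 2 (0.0684) or Light 3 (0.0903), without Dark 1 and Light 2 together (0.108), with rescaling to the same FPKM total (0.16, adjusted p = 0.0948) and with the trend with length and GC removed (0.11, adjusted p = 0.150).

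Rpe encodes ribulose-phosphate epimerase, which makes the xylulose 5-phosphate that transketolase uses. It measured 14.1, 8.64 and 11.4 FPKM in Dark 1 to 3 and 11.9, 9.72 and 9.77 FPKM in Light 1 to 3. The Light values lie inside the range of the Dark values. The means were 11.4 ± 2.74 and 10.5 ± 1.24 FPKM, and the log2 change was -0.09 ± 0.17 (adjusted p = 0.673; 95% interval -0.48 to 0.30). Rpe has the lowest GC content of the 9 transcripts, at 39.1%, and its Dark 1 and Dark 2 values differed by 0.65 on the log2 scale, the widest spread of the 9 in Dark. Its direction turned without Dark 1 (0.06, adjusted p = 0.742). With the trend with length and GC removed it was higher in Light by 0.31 (adjusted p = 0.00642). Rpe shares 558 exonic bases with Kansl1l on the opposite strand, which stood at 0.788 to 2.39 FPKM over the 6 libraries.

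Tkt encodes transketolase, a thiamine-dependent enzyme that moves a glycolaldehyde unit between sugar phosphates. It measured 50.01, 60.8 and 53.1 FPKM in Dark 1 to 3 and 75.1, 84.3 and 79.0 FPKM in Light 1 to 3. The groups did not overlap. The means were 54.6 ± 5.56 and 79.5 ± 4.59 FPKM, a ratio of 1.45, and the log2 change was 0.54 ± 0.09 (adjusted p = 0.00608). Taldo1 encodes transaldolase, which moves a dihydroxyacetone unit and closes the link to glycolysis, and it was the most abundant of the 9 transcripts. It measured 147, 186 and 170 FPKM in Dark 1 to 3 and 243, 276 and 259 FPKM in Light 1 to 3. These groups did not overlap either. The means were 168 ± 19.4 and 259 ± 16.4 FPKM, a ratio of 1.55, and the log2 change was 0.63 ± 0.10 (adjusted p = 0.00545). Both kept their calls in all 15 alternative settings, at 0.39 to 0.61 for Tkt and 0.39 to 0.71 for Taldo1.

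Within a library Taldo1 stood at 2.94 to 3.20 times the FPKM of Tkt in Dark and at 3.23 to 3.28 times in Light (exact permutation p = 0.1, 2-sided, the smallest allowed). The transketolase relatives Tktl1 and Tktl2 were at or near 0: Tktl2 was listed at 0 in every library, and Tktl1 in all but Dark 1, where it read 0.0250 FPKM. In mm10 Rpia (ENSMUSG00000053604) spans chromosome 6 from 70765720 to 70792232 on the minus strand and Rpe (ENSMUSG00000026005) chromosome 1 from 66700831 to 66719805 on the plus strand. Tkt (ENSMUSG00000021957) spans chromosome 14 from 30548359 to 30574720 and Taldo1 (ENSMUSG00000025503) chromosome 7 from 141392199 to 141402968, both on the plus strand. A processed pseudogene of Taldo1, Gm17823, aligned at 94.7% identity over 923 bases and was not analysed here.

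The enzymes outside the pathway moved apart, Me1 up and Idh1 down. Me1 encodes cytosolic malic enzyme, which makes NADPH while turning malate into pyruvate. It measured 28.0, 26.4 and 27.5 FPKM in Dark 1 to 3 and 35.2, 32.3 and 33.7 FPKM in Light 1 to 3. The groups did not overlap. The means were 27.3 ± 0.827 and 33.8 ± 1.48 FPKM, a ratio of 1.24, and the log2 change was 0.30 ± 0.06 (adjusted p = 0.0130). The call was lost without Dark 3 (adjusted p = 0.0560) or Light 3 (0.0627), and with rescaling to the same FPKM total the change was 0.16 (adjusted p = 0.0999). With the trend with length and GC removed it was 0.46 (adjusted p = 0.000729).

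Me1 (ENSMUSG00000032418) spans chromosome 9 from 86581371 to 86695953 on the minus strand. Its site is shown because the core lies across the first RefSeq start, from base -6, and is at the same time an AP-1 site (chr9:86695904-86695928, minus strand; core in capitals).
Me1: tgccgccgTGACTCAGCgcttctcg
The level of Me1 is uncertain because other genes match or overlap it. The processed pseudogenes Gm7049 and Gm7329 aligned to it at 98.5% and 99.0% identity over 1638 and 210 bases. The RNA gene Gm48795 did so at 98.7% over 1159 bases. Gm38230 overlaps Me1 over 1159 bases on the same strand, and A330041J22Rik over 494 bases on the opposite strand. None of these genes was analysed here.

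Idh1 encodes the cytosolic and peroxisomal isocitrate dehydrogenase, which makes NADPH while turning isocitrate into 2-oxoglutarate. It measured 33.5, 30.0 and 30.8 FPKM in Dark 1 to 3 and 28.8, 23.2 and 25.2 FPKM in Light 1 to 3. All 3 Light values lay below all 3 Dark values, though Light 1 came close to Dark 2. The means were 31.4 ± 1.83 and 25.7 ± 2.81 FPKM, a ratio of 0.818, and the log2 change was -0.28 ± 0.09 (adjusted p = 0.0453; 95% interval -0.49 to -0.07). The call was lost without Dark 1 (adjusted p = 0.105), Dark 3 (0.1125), Light 2 (0.150) or Light 3 (0.137), without Dark 1 and Light 2 together (-0.17, adjusted p = 0.265), with median centring (0.0628) and with no filter (0.0919), and with the trend with length and GC removed the change was -0.14 (adjusted p = 0.0842). The Idh1 transcript has a GC content of 43.8%. Idh1 (ENSMUSG00000025950) spans chromosome 1 from 65158616 to 65186500 on the minus strand.

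**Figure D2:**
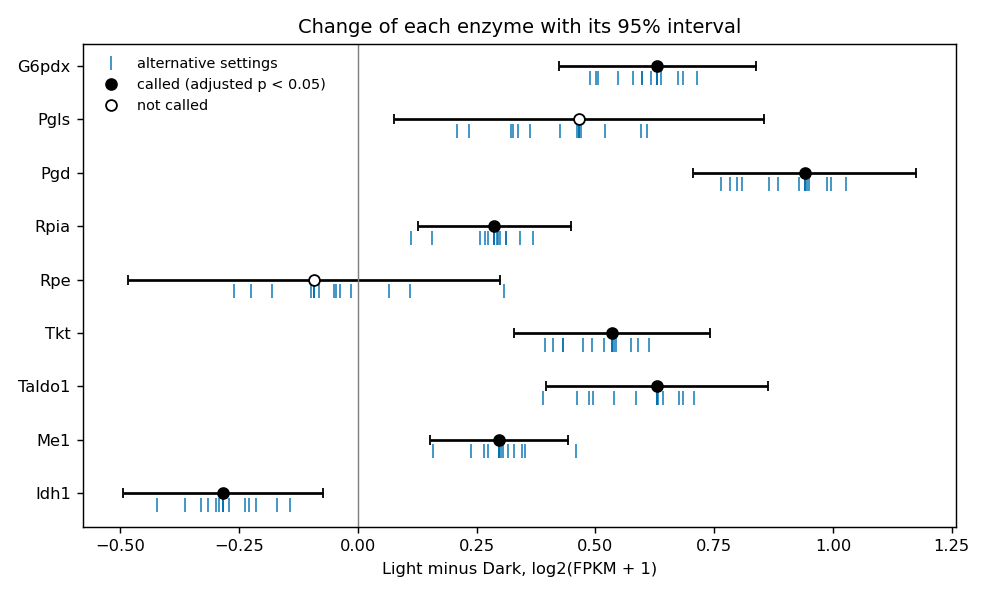
Change of each of the 9 genes, Light minus Dark on log2(FPKM + 1) (horizontal axis), with its 95% interval; filled circles passed an adjusted p of 0.05, open circles did not, and blue ticks are the 15 alternative settings. All ticks lie above 0 for the 7 genes with positive values, all lie below 0 for Idh1, and those of Rpe run from -0.26 to 0.31.

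Levels fell into clear steps. Taldo1, Pgd, Pgls, G6pdx and Tkt stood at percentiles 89.2 to 97.4 of tested genes by mean FPKM, Me1 and Idh1 at 74.2 and 72.7, and Rpe and Rpia at 44.5 and 44.2. By mean over the 6 libraries the order was Taldo1, Pgd, Pgls, G6pdx, Tkt, Me1, Idh1, Rpe and Rpia. Neighbours in that order overlap in Dark for Pgls and G6pdx, for G6pdx and Tkt and for Rpe and Rpia, and in Light for Taldo1 and Pgd, for Pgls and G6pdx and for Rpe and Rpia. Me1 and Idh1 changed places: every Dark library held more Idh1 than Me1, and every Light library more Me1 than Idh1. The 3 oxidative genes summed to 229, 297 and 254 FPKM in Dark 1 to 3 and to 394, 474 and 439 FPKM in Light 1 to 3. The 4 non-oxidative genes summed to 221, 265 and 244 FPKM in Dark 1 to 3 and to 341, 382 and 361 FPKM in Light 1 to 3. Me1 and Idh1 together gave 61.5, 56.4 and 58.2 FPKM in Dark 1 to 3 and 64.0, 55.5 and 59.0 FPKM in Light 1 to 3. Thus the summed levels of both branches were apart between the groups, while the sum of Me1 and Idh1 overlapped.

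**Figure D3:**
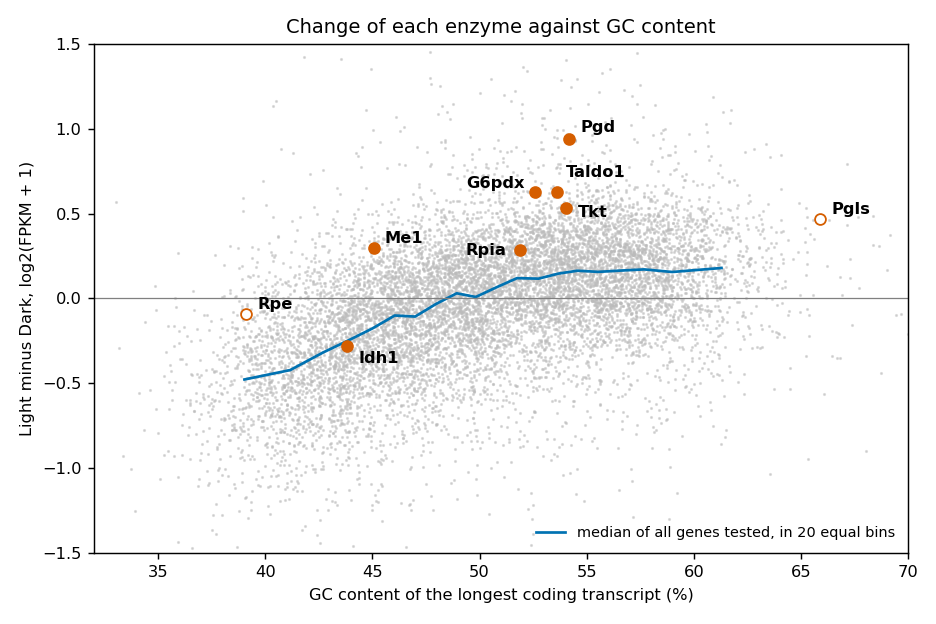
Change of each gene, Light minus Dark on log2(FPKM + 1) (vertical axis), against the GC content of its longest coding transcript in percent (horizontal axis); grey points are the 10664 tested genes with an annotated transcript (57 lie outside the axes), the blue line joins their medians in 20 bins of equal size, and orange circles are the 9 genes, filled where called. Rpe lies at the low end, at 39.1% GC, and Pgls at the high end, at 65.9%, while the median change of all genes runs from -0.45 in the tenth with the lowest GC to 0.17 in the tenth with the highest.

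The 9 transcripts differed in composition and in how they varied among libraries of 1 group. GC contents ran from 39.1% for Rpe to 65.9% for Pgls, and lengths of the longest coding transcript from 1062 bases for Pgls to 3292 for Me1. G6pdx, Pgls, Pgd, Tkt and Taldo1, all at 52.6% GC or more, stood lower in library 1 than in library 2 in both groups, by 0.27 to 0.52 on the log2 scale in Dark and by 0.15 to 0.49 in Light. Rpe, Me1 and Idh1, all at 45.1% GC or less, stood higher in library 1 than in library 2 in both groups, by 0.08 to 0.65 in Dark and by 0.12 to 0.30 in Light. Rpia, at 51.9% GC, differed by -0.05 and -0.04. After removal of the trend with length and GC in each library, 7 of the 9 genes were called higher and 0 lower (limma). Idh1 stood at -0.14 and Rpia at 0.11, and neither passed. Over all 10664 genes tested in that setting, 2303 were called higher and 1823 lower.

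Gene profiles closest to those of the members were sought among 8122 other genes that averaged 5 FPKM or more, by the root mean square difference of log2(FPKM + 1) over the 6 libraries after each profile was centred on its own mean. For G6pdx the nearest were Pmm1 (0.0239), Grn (0.0245) and Wdr81 (0.0280). For Pgd they were Shmt2 (0.0150), Vat1 (0.0266) and Cryab (0.0318), and for Tkt they were Rplp0 (0.0105), Wars (0.0139) and Mgat4b (0.0145). Me1 lay nearest to Xpot (0.0127) and Idh1 nearest to Map4k2 (0.00654). These profiles carry the difference between the groups and the spread within them.

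Of 13 neighbours of the pathway 9 were tested, of which 1 was higher in Light, 1 was lower and 7 did not pass, with a median change of 0.05. Leaving out any library but Dark 2 left 0 higher in limma. H6pd, whose product runs the first oxidative steps inside the endoplasmic reticulum, had means of 25.4 ± 2.03 (Dark) and 24.5 ± 0.526 (Light) FPKM (change -0.05, adjusted p = 0.608), but was called lower with the same FPKM total (-0.19, adjusted p = 0.0392). Prps2, which makes phosphoribosyl pyrophosphate from ribose 5-phosphate, fell from 18.4 ± 3.01 to 11.7 ± 2.79 FPKM (-0.63, adjusted p = 0.0358), and missed the threshold without Dark 1 (adjusted p = 0.0759), Dark 3 (0.109), Light 2 (0.0966) or Light 3 (0.0938), with no filter (0.0850), or without Dark 1 and Light 2 together (-0.35, adjusted p = 0.113). Its relative Prps1 stood at 32.7 ± 0.718 and 32.9 ± 1.179 FPKM (0.01, adjusted p = 0.928). Pgm1, a phosphoglucomutase gene, rose by 0.30 (adjusted p = 0.0455), and leaving out any of Dark 1 (adjusted p = 0.0980), Dark 3 (0.138), Light 1 (0.0592), Light 2 (0.157) or Light 3 (0.110) ended that call. Pgm1 kept its call in 4 of 15 settings, and the change was 0.16 (adjusted p = 0.131) with the same FPKM total, 0.15 (0.0991) with quantile normalization, 0.35 (0.0529) with median centring, 0.23 (0.0570) with the trend with length and GC removed, 0.17 (0.252) without Dark 1 and Light 2 together and 0.30 (0.0918) with no filter. Tigar, whose product opposes glycolysis and favours entry into the pathway, had means of 3.41 ± 0.160 (Dark) and 4.35 ± 0.351 (Light) FPKM (change 0.28, adjusted p = 0.0521).

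Among 12 other NADPH and one-carbon enzymes, which include the NAD-linked Me2, 10 were tested, with 3 higher, 2 lower and 5 not called, and a median of 0.08. Leaving out Dark 3, Light 1 or Light 2 left 0 lower. The increases that held in all 15 alternative settings belonged to mitochondrial folate enzymes. Aldh1l2, a formyltetrahydrofolate dehydrogenase that makes NADPH, rose from 15.9 ± 1.04 to 39.5 ± 0.402 FPKM (1.26, adjusted p = 0.000113), and Mthfd2, a methylenetetrahydrofolate dehydrogenase, from 34.6 ± 1.70 to 63.3 ± 2.04 FPKM (0.85, adjusted p = 0.000340). Nadk, the cytosolic NAD kinase that makes NADP, rose by 0.25 (adjusted p = 0.0406), and fell short without Dark 1 (adjusted p = 0.0943), Dark 3 (0.132), Light 2 (0.134) or Light 3 (0.143). Nadk changed by 0.11 with the same FPKM total (adjusted p = 0.167), by 0.14 with quantile normalization (0.0996) and by 0.19 without Dark 1 and Light 2 together (0.214), and missed the threshold with no filter (0.0742). Mthfd2l fell by 0.40 (adjusted p = 0.0203) and lost its call without Dark 3 (adjusted p = 0.0824), Light 1 (0.05001) or Light 2 (0.0812), without Dark 1 and Light 2 together (0.0822) and with the trend with length and GC removed (-0.27, adjusted p = 0.103). Me3, the mitochondrial NADP-linked malic enzyme gene, fell by 0.35 (adjusted p = 0.0363), without a call when Dark 3 (adjusted p = 0.128), Light 1 (0.0670), Light 2 (0.0759) or Light 3 (0.129) was left out. Me3 stood at -0.19 both with quantile normalization (adjusted p = 0.253) and with the trend with length and GC removed (0.214), and missed the threshold with median centring (0.0700), with no filter (0.0520) and without Dark 1 and Light 2 together (0.0671).

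Idh2, the mitochondrial NADP-linked isocitrate dehydrogenase gene, had means of 131 ± 10.7 (Dark) and 138 ± 5.18 (Light) FPKM (change 0.08, adjusted p = 0.422), but was called lower with the trend with length and GC removed (-0.15, adjusted p = 0.0210). Idh1 stood at 0.275, 0.211 and 0.239 times the FPKM of Idh2 in Dark 1 to 3 and at 0.217, 0.163 and 0.179 times in Light 1 to 3, which overlap (exact permutation p = 0.2, 2-sided). Me2, the mitochondrial NAD-linked malic enzyme gene, stood at 23.0 ± 1.26 and 24.4 ± 0.390 FPKM (0.08, adjusted p = 0.324). Me1 stood at 1.10 to 1.30 times the FPKM of Me2 in Dark and at 1.35 to 1.44 times in Light, groups that do not overlap (exact permutation p = 0.1, 2-sided, the smallest allowed). For Nnt, which encodes the mitochondrial transhydrogenase, the line read (ENSMUSG00000116207) was listed at 0 in every library. Other lines of this gene were not looked for.

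Of 23 genes whose enzymes or complexes use NADPH 22 were tested, and 12 were higher in Light, 4 were lower and 6 did not pass, with a median of 0.36. Without Dark 3 or without Light 3 the count was 7 higher and 1 lower, without Light 2 it was 8 higher and 1 lower, without Light 1 it was 12 higher and 1 lower, and median centring and no filter each gave 1 lower. The quinone reductase gene Nqo1 rose by 1.73 (adjusted p = 2.83e-05), the biliverdin reductase gene Blvrb by 1.19 (adjusted p = 0.000406), the carbonyl reductase gene Cbr3 by 1.00 (adjusted p = 0.00249) and Pycr1, of mitochondrial proline synthesis, by 0.77 (adjusted p = 0.00369). Gsr, the glutathione reductase gene, rose from 27.8 ± 1.16 to 41.8 ± 0.435 FPKM (0.57, adjusted p = 0.00101) and Txnrd1, the cytosolic thioredoxin reductase gene, from 75.7 ± 1.15 to 128 ± 1.55 FPKM (0.74, adjusted p = 0.000340). These 6 kept their calls in all 15 settings, and Gsr and Txnrd1 were named after their values were seen. So were the fatty acid synthase gene Fasn, which fell by 0.34 (adjusted p = 0.0243), and Dhcr7, of sterol synthesis, which fell by 0.33 (adjusted p = 0.0362). The calls of Fasn and Dhcr7 were lost without Dark 3 (adjusted p = 0.0635 and 0.0729), Light 1 (0.0617 and 0.0715), Light 2 (0.0758 and 0.126) or Light 3 (0.0728 and 0.0733), with median centring (0.0724 and 0.0725) and with no filter (0.0541 and 0.0731). Fasn changed by -0.12 with the trend with length and GC removed (adjusted p = 0.137), and Dhcr7 missed the threshold with quantile normalization (0.0894) and without Dark 1 and Light 2 together (0.106).

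Genes that supply glucose 6-phosphate or compete for it were called higher in 4 of 9 tested cases and lower in 0, with a median of 0.30. Pfkp, a phosphofructokinase subunit gene, rose by 0.40 (adjusted p = 0.00916), the hexokinase gene Hk2 by 0.33 (adjusted p = 0.0171), the glucose transporter gene Slc2a1 by 0.31 (adjusted p = 0.0178) and the glucose phosphate isomerase gene Gpi1 by 0.30 (adjusted p = 0.0445). Leaving out Light 3 ended all 4 calls (adjusted p = 0.0509, 0.0659, 0.0502 and 0.115), and leaving out Dark 3 (0.0709, 0.0778 and 0.140) or Light 2 (0.0600, 0.0762 and 0.154) ended those of Hk2, Slc2a1 and Gpi1. Gpi1 lost its call without Dark 1 (adjusted p = 0.0932) or Light 1 (0.0592) as well. With the same FPKM total 1 gene of the list was called higher, and the changes of Hk2, Slc2a1 and Gpi1 were 0.20 (adjusted p = 0.0690), 0.17 (0.0537) and 0.16 (0.121). Gpi1 changed by 0.13 with quantile normalization (adjusted p = 0.123) and missed the threshold with median centring (0.0526) and with no filter (0.0879). Without Dark 1 and Light 2 together 0 genes of the list were called. Of 12 genes that build or salvage nucleotides on phosphoribosyl pyrophosphate 5 were higher, 1 was lower and 6 did not pass, with a median of 0.15. Without Dark 3 or without Light 3 the count was 1 higher and 0 lower, without Light 2 it was 3 higher and 0 lower, and with the same FPKM total it was 3 higher and 2 lower. The purine salvage gene Aprt rose by 0.54 (adjusted p = 0.0103) and the purine synthesis genes Atic and Gart rose by 0.44 (adjusted p = 0.00734) and 0.38 (adjusted p = 0.0240). Uprt, named for uracil phosphoribosyltransferase, fell by 0.98 (adjusted p = 0.0215). Atic kept its call in all 15 settings. Aprt lost its call without Dark 3 (adjusted p = 0.0519) or Light 3 (0.0509), Gart without Dark 3 (0.0775), Light 2 (0.0945) or Light 3 (0.0945), and also with the same FPKM total (0.23, adjusted p = 0.0546), with no filter (0.0562) and without Dark 1 and Light 2 together (0.120), and Uprt without Dark 3 (0.0649), Light 2 (0.0798) or Light 3 (0.0745) and with no filter (0.0570).

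**Figure D4:**
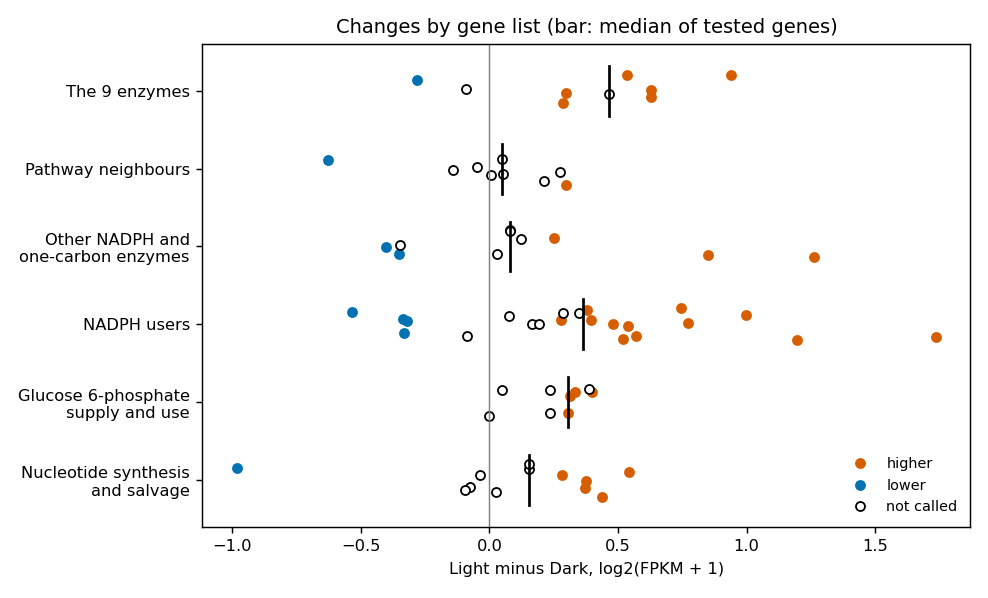
Change of each tested gene, Light minus Dark on log2(FPKM + 1) (horizontal axis), by gene list; orange points were called higher, blue points lower and open points neither, vertical spread within a list has no meaning, and the black bar is the list's median. The medians are 0.47 for the 9 genes, 0.05 for pathway neighbours, 0.08 for other NADPH and one-carbon enzymes, 0.36 for NADPH users, 0.30 for glucose 6-phosphate supply and use and 0.15 for nucleotide synthesis and salvage.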

How the data were processed

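RNA of 661W cells was sequenced as mRNA libraries, per the labels' protocols. Groups and numbers were taken from the sample titles. The submitters' processing notes name HISAT2 and mm10. Not given in the sources used here are the version, the program behind FPKM, its annotation and its strand setting. Values deposited by the authors are FPKM, per the file headers, as a series table and as 6 files of 1 library each with the same values. Whole reads could not be recovered: the commonest ratio between libraries covered 0.71% to 1.28% of 1407 low genes. Precision therefore rests on 3 libraries per group.

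Genes averaging 1 FPKM or more were tested on log2(FPKM + 1) with limma 3.58.1 (R 4.3.3; trend and robust eBayes, group as the only term, 2-sided) and called at a Benjamini-Hochberg adjusted p under 0.05 over all genes. Fold changes on this scale understate changes of low genes. The procedure was tested on simulated data, whose outcome is not given here and is not used as support for the calls. GENCODE M21 gave coordinates, transcript length and GC content. Promoter sequences came from RefSeq (GRCm38.p6). The 9 genes and all lists were chosen with earlier results of these data known. Named genes are the members, genes of the NADPH and one-carbon list and of the neighbour list, and the 4 largest called changes of each other list. Additions are marked. Some genes of the lists are not reported here by name.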

Additional observations from a re-analysis of the deposited data

How the results depend on the processing

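Choices were changed 1 at a time in 15 alternative settings, except that Dark 1 and Light 2 were also left out together. These were the lowest Dark and the highest Light library for G6pdx, Pgls, Pgd, Tkt and Taldo1. For Rpe, Me1 and Idh1 they were the highest Dark and the lowest Light library. G6pdx, Pgd, Tkt and Taldo1 kept direction and call in all 15, and the 7 genes with positive changes and Idh1 kept their direction. Rpe turned to 0.11 without Dark 1 and Light 2 together, to 0.31 with the trend with length and GC removed and ran from -0.26 to 0.065 with 1 library left out (positive without Dark 1). Leaving out each library in turn gave 4 to 8 members called, 4 to 7 higher and 0 to 1 lower, and 1228 to 5877 genes called in all, 688 to 2994 higher and 526 to 2883 lower, where one group has 2 libraries. Without Dark 1 and Light 2 together 0 members were lower, and 1425 genes were called, 785 higher and 640 lower. With no filter 0 members were lower, and 2606 genes were called, 1109 of them lower. Median centring left 0 members lower (2256 genes higher and 1639 lower in all), as did removing the trend with length and GC (2303 and 1823). Each of these counts of 0 is the loss of Idh1, whose unadjusted p in limma was 0.0152 as first tested. With the same FPKM total 1212 genes were higher and 2910 lower. The replicate number as a block gave 6690 genes called, 3287 higher and 3403 lower, and 8 members, Pgls among them (0.47, adjusted p = 2.19e-05). Same-numbered libraries deviated together for numbers 1 and 2 (correlations of 0.69 and 0.64) but not 3 (-0.09). Pairing was taken to need a correlation over 0.1 for every number, so the block was not treated as a design pairing, and Light 3 correlated best with Dark 2 (0.08). Deviations were taken from the mean of each group of 3 libraries, so the correlations for numbers 1, 2 and 3 are not independent of each other. The cause of these moves was not tested.

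Among the other genes named, 10 of 477 values turned sign. H6pd was 0.00666 with median centring and -0.0881 to 0.0139 with 1 library left out (positive without Dark 2), and it was called lower with the same FPKM total (-0.19, adjusted p = 0.0392). Idh2 was -0.0772 with quantile normalization, -0.0618 with the same FPKM total and -0.15 with the trend with length and GC removed, where it was called lower (adjusted p = 0.0210). Me2 was -0.0562 with the same FPKM total. Prps1 was -0.0515 with quantile normalization, -0.13 with the same FPKM total, -0.00609 without Dark 3, and -0.0165 to 0.0337 with 1 library left out (lowest without Light 3). A further 94 lost a call and 11 gained one in the same direction. Read depth is unknown, so it could not be said what depth limits.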
